A study of Mus musculus with 6 samples.

Results

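Most mammalian protein-coding genes are split into exons that are joined by splicing, but a minority consist of 1 uninterrupted exon. Many intronless genes arose when a spliced transcript was reverse transcribed and reinserted, and others descend from transposable elements or were compact from the start. They include receptors, transcription factors, histones and signalling proteins of the brain. MPP8, the product of Mphosph8, is a chromodomain protein of the HUSH complex, a repressor that binds histone H3 lysine 9 trimethylation and acts on transposable elements and on some long or intronless transcription units.

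The genes described here were the protein-coding genes of the GENCODE M21 annotation (mouse GRCm38) whose every annotated transcript had 1 exon and that held at least 200 counts over all 6 libraries. Of 54532 gene identifiers, 1339 were single-exon protein-coding genes, 252 of these reached 200 counts, and 44 of the 252 were left out by symbol or region, which gave 208 genes. Left out were the protocadherins, the Sox, Pou3f, Mage, Hist, Slitrk, Lrrtm and Flrt genes, the stretch of chromosome 14 around Mphosph8, and 12 named genes (Ndn, Mkrn3, Peg12, Nap1l5, Rtl1, Junb, Ier2, Olig1, Htr1a, Map10, Dnajb3 and Bhlhe22). The genes were thus chosen by gene structure and by the summed counts of both genotypes, and the names were left out with the results of this comparison known, so counts over the 208 genes are a description of that trimmed list. A further 1020 single-exon coding genes fell under the minimum, 677 of them with no count at all.

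RNA of whole brains of C57BL/6J mice was sequenced at postnatal day 14, with 1 library per brain. The 3 control brains were Mphosph8fl/+ Nestin-Cre+ and the 3 mutant brains Mphosph8fl/fl Nestin-Cre+ (labelled Mphosph8∆n), so both groups carried the Cre transgene. The controls carried a floxed allele as well and are labelled HET. Where Cre acts they are thus heterozygous for the deletion and are not intact controls. All changes below compare homozygous with heterozygous deletion. Nestin-Cre acts in the developing nervous system and leaves vessel cells and microglia of the brain largely untouched. In bulk tissue of this kind, fewer cells of a type and less RNA per cell cannot be told apart. The labels give the controls a floxed allele that the study's methods do not mention, and the labels were followed.

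The libraries held 12956880 to 15223424 counts. Mphosph8 itself stood at 55.8, 48.6 and 70.7 CPM (counts scaled to the effective size of the library) in the controls and 33.1, 27.2 and 26.5 CPM in the mutants, a log2 fold change of -1.02 (edgeR adjusted p = 0.000157). All neuron, astrocyte and oligodendrocyte markers examined were detected. Control replicate 3 alone held counts of the Y-linked gene Ddx3y (1338, against 0 in the 5 other libraries). Results without this library are given for Ldoc1, Fbll1 and some counts over the list. Other values also shifted without it, those of Mphosph8 and Ccdc184 among them, and are given with all 6 libraries only.

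Of the 208 genes, 187 lay on autosomes, 15 on the X chromosome and 6 in mitochondrial DNA. Their exonic length ran from 401 to 11294 bases with a median of 2546.5, and their GC content from 34.9% to 71.3% with a median of 54.5%. Their mean level ran from 2.40 to 859 CPM with a median of 16.1 CPM, and 204 had a single annotated transcript. In 161 genes no 50-base word of the transcript occurred in a transcript of another gene, and in 12 genes more than 10% of the words did. Of all 208 genes, 51 had exonic bases opposite exons of another gene, some of them among the 161. The strand setting of the counting is not given in the sources used here.

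The stretches upstream of 3 of the genes that passed the test described next are shown first. Their CpG counts in windows of equal length follow with those of the whole list. The bases run 5′ to 3′ on the strand of the gene, end at the base before the annotated exon, and carry each CpG in capitals. The sequences and windows are from RefSeq (GRCm38.p6), which held no entry for Eid2b under that symbol.
Nhlrc1, chr13:47014851-47015100, minus strand: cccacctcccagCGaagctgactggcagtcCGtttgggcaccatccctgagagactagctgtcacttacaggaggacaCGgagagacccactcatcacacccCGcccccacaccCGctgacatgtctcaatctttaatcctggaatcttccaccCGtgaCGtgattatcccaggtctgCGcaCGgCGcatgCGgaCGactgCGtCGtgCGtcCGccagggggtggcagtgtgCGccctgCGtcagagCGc
Ldoc1, chrX:61709361-61709496, plus strand: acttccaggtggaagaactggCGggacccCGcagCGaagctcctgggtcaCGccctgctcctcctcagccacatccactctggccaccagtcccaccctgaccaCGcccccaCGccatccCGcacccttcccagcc
Fbll1, chr11:35798885-35799134, minus strand: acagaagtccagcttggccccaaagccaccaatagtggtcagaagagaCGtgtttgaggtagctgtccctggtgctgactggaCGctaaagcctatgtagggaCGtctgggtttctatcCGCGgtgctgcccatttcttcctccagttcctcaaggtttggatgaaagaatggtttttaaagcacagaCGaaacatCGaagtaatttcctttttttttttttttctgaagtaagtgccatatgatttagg
The stretch before Nhlrc1 held 19 CpG in 250 bases, that before Fbll1 held 7 in 250 bases, and that before Ldoc1 held 7 in 136 bases, where the RefSeq start lies 114 bases from the GENCODE start.

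Windows of 300 bases, from 250 before to 50 after the start, were matched by symbol for 149 of the 202 nuclear genes. The median window of these genes held 21 CpG and 61.3% GC, against 7 CpG and 52.7% GC over all 32851 windows of the table. In the same 300-base windows, Nhlrc1 held 26 CpG, Ldoc1 15 and Fbll1 8. The letters TATAAA, sought on both strands as were the others, stood in 6.71% of the matched windows and in 13.6% of all windows. GGGCGG, the core of a GC box, stood in 64.4% against 35.7%, CCAAT in 40.9% against 37.4%, and CACGTG in 8.05% against 7.15%. The 16 matched genes that were higher in the mutants at an unadjusted p under 0.05 had a median of 17 CpG, against 21 over all 149. None of their windows held TATAAA, against 6.71% of the 149, and 16 windows are too few to separate these shares. These differences were not tested, and a match of letters is a description and no site. The 32851 windows were taken without a limit on gene type, level or number of windows per gene. The sets thus differ in more than exon number, and the values are not a trait shown for single-exon genes.

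Level and change were then compared across all 208 genes. This asks whether single-exon genes, beyond the families already left out, differed between homozygous and heterozygous deletion of Mphosph8. Only Ldoc1 passed both limits used for a call, an adjusted p under 0.05 and a fold change over 2, and it was higher in the mutants. This is 0.481% of the 208 genes, against 0.353% of the 16731 genes tested. No gene was called lower, against 0.00598% of all genes tested. At an adjusted p under 0.05 without the fold limit, Nhlrc1, Eid2b, Ldoc1 and Fbll1 were higher, which is 1.92% of the list against 0.532% of all genes tested and 0.289% of 14189 multi-exon coding genes. None was lower at that limit, against 0.0956% of all genes tested, while 5 were lower at an unadjusted p under 0.05.

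A wider group stood above the controls. It includes the 4 genes past the adjusted test, and the rest of it did not pass that test. At an unadjusted p under 0.05, 26 genes (12.5%) were higher, against 4.09% of all genes tested. By the same measure the 5 lower genes made up 2.4%, against 2.41% of all genes tested. In 34 genes (16.3%) every mutant library lay above every control library, against 6.23% of all genes tested, and in 8 genes (3.85%) every mutant library lay below, against 5.42%. The rule kept only genes with 200 counts or more, and 13984 tested genes met that minimum. Among these, 3.64% were higher and 2.65% lower at an unadjusted p under 0.05, every mutant library lay above in 5.53% and below in 5.74%, and 45.1% had a change above 0 and 54.9% below. At an adjusted p under 0.05, 0.508% of them were higher and 0.114% lower, and 0.293% were called higher and 0.00715% lower. Without the 6 mitochondrial genes, these counts were 21 higher, 5 lower, 28 above and 8 below among 202 genes.

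**Figure D1:**
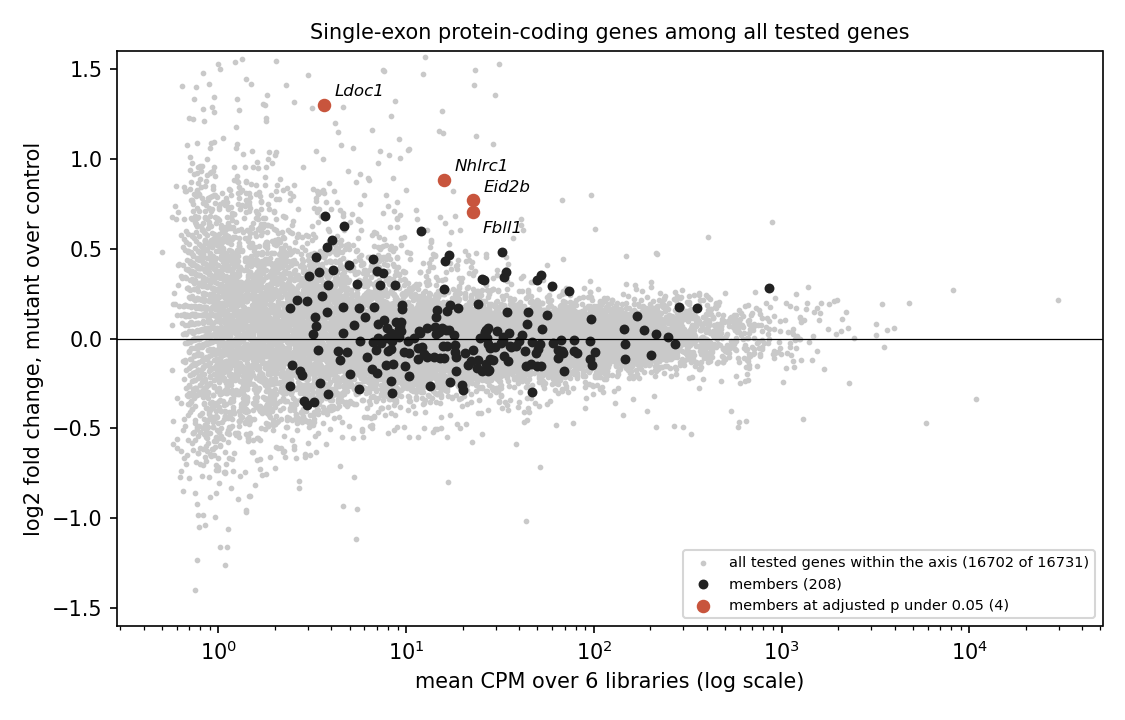
Log2 fold change of mutant over control (vertical axis) against mean CPM over the 6 libraries (horizontal axis, log scale); grey points are tested genes within the axis limits (16702 of 16731), black points the 208 single-exon genes, and red points the 4 with an adjusted p under 0.05. Most black points lie within the grey band around 0, and the 4 red points lie above it between 0.70 and 1.30.

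The centre of the list lay close to that of all genes. The median log2 fold change was 0.0018 with quartiles of -0.10 and 0.15, beside a median of -0.0073 over all genes tested and -0.015 over multi-exon coding genes. The change was above 0 in 105 genes, against 47.6% of all genes tested, and below 0 in 103, against 52.4%. The 95% interval of the log2 fold change lay within 1.5-fold either way for 164 genes and within 2-fold for 204, so larger changes of most of these genes fell outside their own intervals. The 44 genes left out by the rule had a median of 0.18, with 35 above 0 and 10 called higher.

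The 4 genes that rose belong to unrelated protein families. Nhlrc1 (ENSMUSG00000044231, chr13:47012557-47014850, minus strand) encodes malin, an E3 ubiquitin ligase that acts with laforin in glycogen metabolism and is mutated in Lafora disease. It stood at 12.03, 11.3 and 10.1 CPM in the controls and 22.0, 19.9 and 19.8 CPM in the mutants. The groups were far apart compared with the spread within them, and the log2 fold change was 0.89 ± 0.11 (SE; edgeR adjusted p = 0.000315).

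Eid2b (ENSMUSG00000070705, chr7:28277739-28279489, plus strand) encodes a member of the EID family, inhibitors of the acetyltransferase EP300 and of differentiation. It was measured at 17.95, 15.5 and 16.7 CPM in the controls and at 29.7, 29.0 and 26.8 CPM in the mutants. The lowest mutant library lay well above the highest control, with a log2 fold change of 0.77 ± 0.10 (edgeR adjusted p = 0.00036).

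Ldoc1 (ENSMUSG00000057615, chrX:61709497-61710955, plus strand) encodes a leucine-zipper protein derived from the gag region of a retrotransposon. The control libraries held 2.06, 1.61 and 2.63 CPM and the mutant libraries 5.76, 4.55 and 5.38 CPM, near the lower end of the list. The groups did not overlap, and the 2.47-fold difference was the largest of the 208 genes (log2 fold change 1.30 ± 0.22, edgeR adjusted p = 0.00492). Without control replicate 3, the library with Y-linked counts, the value of this X-linked gene was 1.5 (edgeR adjusted p = 0.00766).

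Fbll1 (ENSMUSG00000051062, chr11:35797382-35798884, minus strand) encodes a fibrillarin-like protein, a relative of the methyltransferase that modifies ribosomal RNA. Its control libraries were spread over 21.7, 16.3 and 13.5 CPM, whereas the mutants stood close together at 27.3, 28.9 and 27.8 CPM. All mutants were above all controls, with a log2 fold change of 0.70 ± 0.13 (edgeR adjusted p = 0.0156). That it passed the adjusted test rested on single libraries: the edgeR adjusted p was 0.0859 without control replicate 2, 0.0836 without control replicate 3 and 0.0946 without mutant replicate 2. The other 3 genes passed in every fit that left out a library.

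**Figure D2:**
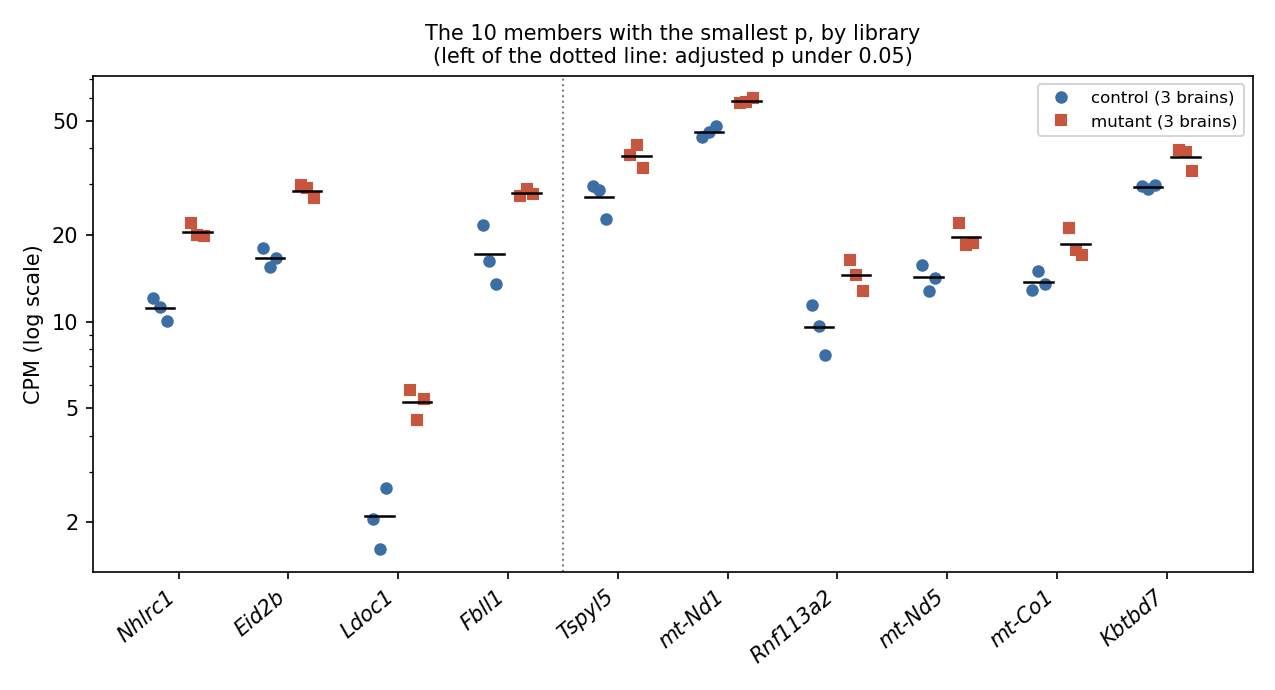
CPM (log scale) of the 10 genes with the smallest p in each of the 3 control (blue circles) and 3 mutant (red squares) brains, with horizontal bars at the group means; genes left of the dotted line had an adjusted p under 0.05. In all 10 genes every mutant brain lies above every control brain, with the widest gap for Ldoc1.

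None of the 4 genes had a 50-base word in another gene's transcripts, nor exons opposite another gene. The genes around them were examined to see whether a change extended along the chromosome. Within 100000 bases of Nhlrc1, 6 other genes were tested and 0 passed the adjusted edgeR test, although 2010001K21Rik and Gm5790 were at an unadjusted p under 0.05. Gm5790, a processed pseudogene on the same strand 1612 bases away, held 2, 7 and 4 counts in the controls and 12, 16 and 13 in the mutants (log2 fold change 1.76 ± 0.46, edgeR adjusted p = 0.132). Around Eid2b 10 genes were tested with log2 fold changes from -0.17 to 0.28, and around Fbll1 4 genes with -0.13 to 0.24, and 0 of these passed at an adjusted p under 0.05. At an unadjusted p under 0.05 there was 0 around Eid2b and 1, Wwc1, around Fbll1. No gene within 100000 bases of Ldoc1 was tested. Within 1500000 bases, 3 of the 80 genes tested around Eid2b were higher at an edgeR adjusted p under 0.05, against 0.532% of all genes tested. In the same window, 0 of 17 around Nhlrc1, 0 of 8 around Fbll1 and 0 of 4 around Ldoc1 passed in either direction. The 3 genes around Eid2b were Catsperg1 (901832 bases away, log2 fold change 1.29 ± 0.25), the pseudogene 4930432E11Rik (1279090 bases away, 4.104 ± 0.16) and the long noncoding RNA A330087D11Rik (1289414 bases away, 1.98 ± 0.37). A link between their changes and that of Eid2b was not tested.

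Relatives of the changed genes were set beside them, each a single-exon gene of the same list. Eid2, which lies 8467 bases from Eid2b on the same strand, stood at 30.3, 26.8 and 23.3 CPM in the controls and 25.03, 31.1 and 27.7 CPM in the mutants, with a log2 fold change of 0.06 ± 0.11. Eid1, the most abundant gene of the list per kilobase, had 0.03 ± 0.08. Among other gag-derived genes, Rtl8a, Rtl8b and Rtl8c had log2 fold changes of 0.08, 0.0038 and -0.01 beside 1.30 for Ldoc1. Pnma3 had 0.37 ± 0.11, Rtl6 had 0.29 ± 0.08 and Pnmal2 had 0.01 ± 0.09. Rtl8a and Rtl8b share 85.0% and 80.0% of their words with each other, so their separate counts are uncertain. These differences between family members were not tested.

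Several further families had members with unequal values. Tspyl5, a gene of the TSPY and NAP1 histone-binding family, was at 29.6, 28.8 and 22.7 CPM in the controls and 38.0, 41.1 and 34.3 CPM in the mutants. Its groups did not overlap, but its log2 fold change of 0.49 ± 0.11 just missed the threshold (edgeR adjusted p = 0.0556), while Tspyl1 had -0.15 ± 0.08 and Tspyl3 had 0.12 ± 0.12. The related chaperones Nap1l2 and Nap1l3 had -0.11 and -0.12.

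Rnf113a2 encodes a RING-finger protein of the spliceosome and lies within Bbof1 on the same strand. It was at 11.4, 9.67 and 7.63 CPM in the controls and 16.3, 14.6 and 12.7 CPM in the mutants (log2 fold change 0.60 ± 0.15, edgeR adjusted p = 0.107), beside 0.17 for the host gene and 0.30 for the X-linked Rnf113a1. Ttc30a1, which encodes a subunit of intraflagellar transport in cilia, had 0.68 ± 0.21 and its neighbour Ttc30b 0.30 ± 0.16. These 2 genes share 31.8% and 34.8% of their words with other genes, chiefly Ttc30a2. In the FRAT pair, which binds the kinase GSK3 in Wnt signalling, Frat2 had -0.30 ± 0.14 and Frat1 had 0.03 ± 0.16.

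**Figure D3:**
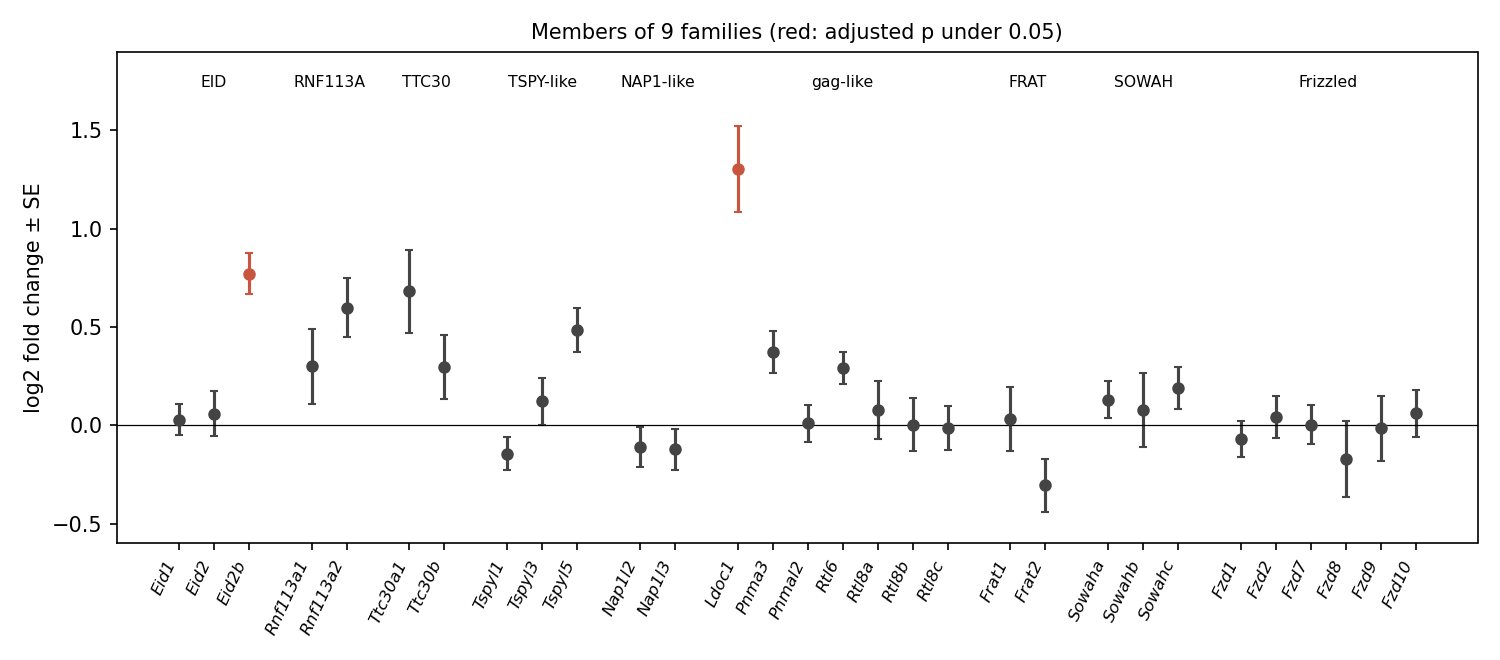
Log2 fold change of mutant over control with its SE (vertical axis) for the single-exon members of 9 gene families, named above the points; red marks an adjusted p under 0.05. Eid2b stands apart from Eid1 and Eid2, whose values lie near 0. Ldoc1 stands above its gag-like relatives, of which Pnma3 (0.37) and Rtl6 (0.29) lie above 0 and the others near 0. The 6 Frizzled receptors lie between -0.17 and 0.06.

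The list was next read by role, with roles assigned by hand and no test of any role as a set. Over all genes tested, 47.6% had a change above 0 and 52.4% below. At an unadjusted p under 0.05, 4.09% of them were higher and 2.41% lower. Of 13 genes derived from retrotransposons or transposases, 11 had a log2 fold change above 0, 4 were at an unadjusted p under 0.05 and only Ldoc1 passed the adjusted test (median 0.08). Rtl6, a gag-derived gene, was at 56.3, 55.9 and 50.1 CPM in the controls and 69.2, 64.0 and 65.4 CPM in the mutants (0.29 ± 0.08, edgeR adjusted p = 0.181). Pnma3, a paraneoplastic Ma antigen with a gag-like fold, had 0.37 ± 0.11 (edgeR adjusted p = 0.203) and shares 23.8% of its words with Pnma5. At the other end, the retroviral restriction factor Fv1 had -0.37 ± 0.22, the lowest value of all 208 genes. Centromere protein gene Cenpb, related to a transposase, had 0.18 ± 0.09.

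Of 19 genes of RNA processing, ribosome biogenesis and translation, Fbll1 passed the adjusted test, 3 more were higher and 1 was lower at an unadjusted p under 0.05. The 3 were Rnf113a2, Nanos1, a repressor of translation (0.33 ± 0.11), and Alyref2, an mRNA export adaptor (0.44 ± 0.16). In Alyref2, 634 exonic bases lie opposite exons of B930036N10Rik. The lower gene was Imp3, a protein of the U3 particle that processes ribosomal RNA, at 23.2, 22.6 and 18.6 CPM in the controls and 17.2, 19.5 and 17.2 CPM in the mutants (-0.26 ± 0.11). Its groups overlapped. Hnrnpa0, an abundant RNA-binding protein, had -0.09 ± 0.08.

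Of 15 sequence-specific transcription factors, 11 had a value below 0, against 52.4% of all genes tested, and the median was -0.10. No gene passed the adjusted edgeR test, and 1 in each direction was at an unadjusted p under 0.05. Jun, the AP-1 subunit induced by activity and stress, was at 57.0, 48.4 and 49.3 CPM in the controls and 42.8, 44.6 and 38.4 CPM in the mutants. The groups did not overlap (-0.30 ± 0.09, edgeR adjusted p = 0.296), and 232 of its exonic bases lie opposite exons of Junos. Purb, a purine-rich element binding protein and the gene with the highest CPM of the list, was at 780, 778 and 769 CPM in the controls and 1059, 838 and 930 CPM in the mutants. Its controls were almost equal, its mutants were spread (0.28 ± 0.10, edgeR adjusted p = 0.444), and Jund had -0.02 ± 0.12. Foxl2 and Cebpb had values below 0 with wide errors, -0.35 ± 0.22 and -0.31 ± 0.25, while the forkhead factor Foxc1 had -0.10 ± 0.11.

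Of 12 coregulators of transcription, Eid2b passed the adjusted test and Nrarp, a target and inhibitor of Notch signalling, had 0.27 ± 0.09 (edgeR adjusted p = 0.397). In Nrarp, 2051 exonic bases lie opposite exons of Gm38287. Histones, histone chaperones and chromatin proteins (12 genes) had a median of -0.11, with Tspyl5 as the highest. Of these, 8 were below 0, against 52.4% of all genes tested. Linker histone H1f0 had 0.05 ± 0.08 and the variant histone H2afx -0.14 ± 0.10. In the ubiquitin and ubiquitin-like pathway (9 genes) Nhlrc1 passed, and Kbtbd7, an adaptor of cullin ligases, had 0.34 ± 0.09 (edgeR adjusted p = 0.166) with 16.2% of its words shared with Kbtbd6. The ubiquitin receptor gene Ubqln2 had -0.03 ± 0.07.

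Receptors and signalling genes gave no value past the adjusted edgeR test. Among 10 G protein-coupled receptors, 1 was at an unadjusted p under 0.05. This was Drd5, a dopamine receptor coupled to stimulatory G proteins, at 4.39, 3.22 and 3.31 CPM in the controls and 6.40, 4.63 and 5.89 CPM in the mutants (0.63 ± 0.20, edgeR adjusted p = 0.312), and 1531 of its exonic bases lie opposite exons of Gm26560. Gpr62, a receptor enriched in oligodendrocytes, had -0.26 ± 0.15. Beside it, all 8 oligodendrocyte markers were below 0, 2 of them past the adjusted test, and their summed level was 21576 to 25839 CPM in the controls and 17129 to 19850 CPM in the mutants; the part of this in the value of Gpr62 was not tested.

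The 6 Frizzled receptors for Wnt proteins ranged from -0.17 for Fzd8 to 0.06 for Fzd10, with 0 at an unadjusted p under 0.05. Among 4 channel subunits, Kcna5 and Kcna3 of voltage-gated potassium channels had 0.37 ± 0.15 and 0.46 ± 0.23. The 6 small GTPases and kinase activators ranged from -0.24 to 0.18, with Rhob at -0.03 ± 0.09 and Cdk5r2, a neuronal activator of the kinase CDK5, at 0.17 ± 0.10. Slc18a3, the vesicular acetylcholine transporter gene nested in Chat, had -0.20 ± 0.19 beside -0.35 for its host.

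The 4 vessel, perivascular and meningeal genes had closely similar values. Cldn5, the tight-junction claudin of brain endothelium, was at 163, 144 and 150 CPM in the controls and 159, 137 and 127 CPM in the mutants. Its groups overlapped, and the 4 values ran from -0.11 to -0.10 with 0 at an unadjusted p under 0.05. Of 7 endothelial markers, 6 were below 0 with summed levels of 594 to 633 CPM in the controls and 547 to 636 CPM in the mutants. Cldn5 is itself 1 of these 7 markers, so their values and sums include it.

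The remaining groups held few values away from 0, and no gene in them passed the adjusted edgeR test. Of 9 genes of membrane traffic, lysosome and cilium, Ttc30a1 and Tram1l1, a translocon-associated protein gene (0.33 ± 0.10), were higher at an unadjusted p under 0.05. Among 6 glycosylation enzymes (-0.05 to 0.17), 9 leucine-rich repeat and other membrane proteins (-0.20 to 0.16), 3 SOWAH ankyrin-repeat genes (0.08 to 0.19), 2 reprimo genes (-0.15 and -0.12), 2 Arxes genes (-0.07 and -0.06) and 2 Mab21-like genes (-0.28 and 0.02), none was. Of 10 genes of Wnt and Hedgehog signalling, Frizzled receptors included, Frat2 alone was lower at that limit, as was Ado among 8 other enzymes. The 46 other or uncharacterised genes split into 23 above and 23 below 0, with Gm10643 (0.55 ± 0.20), Tusc1 (0.38 ± 0.14) and Gm5136 higher and Ccdc184 lower at an unadjusted p under 0.05.

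**Figure D4:**
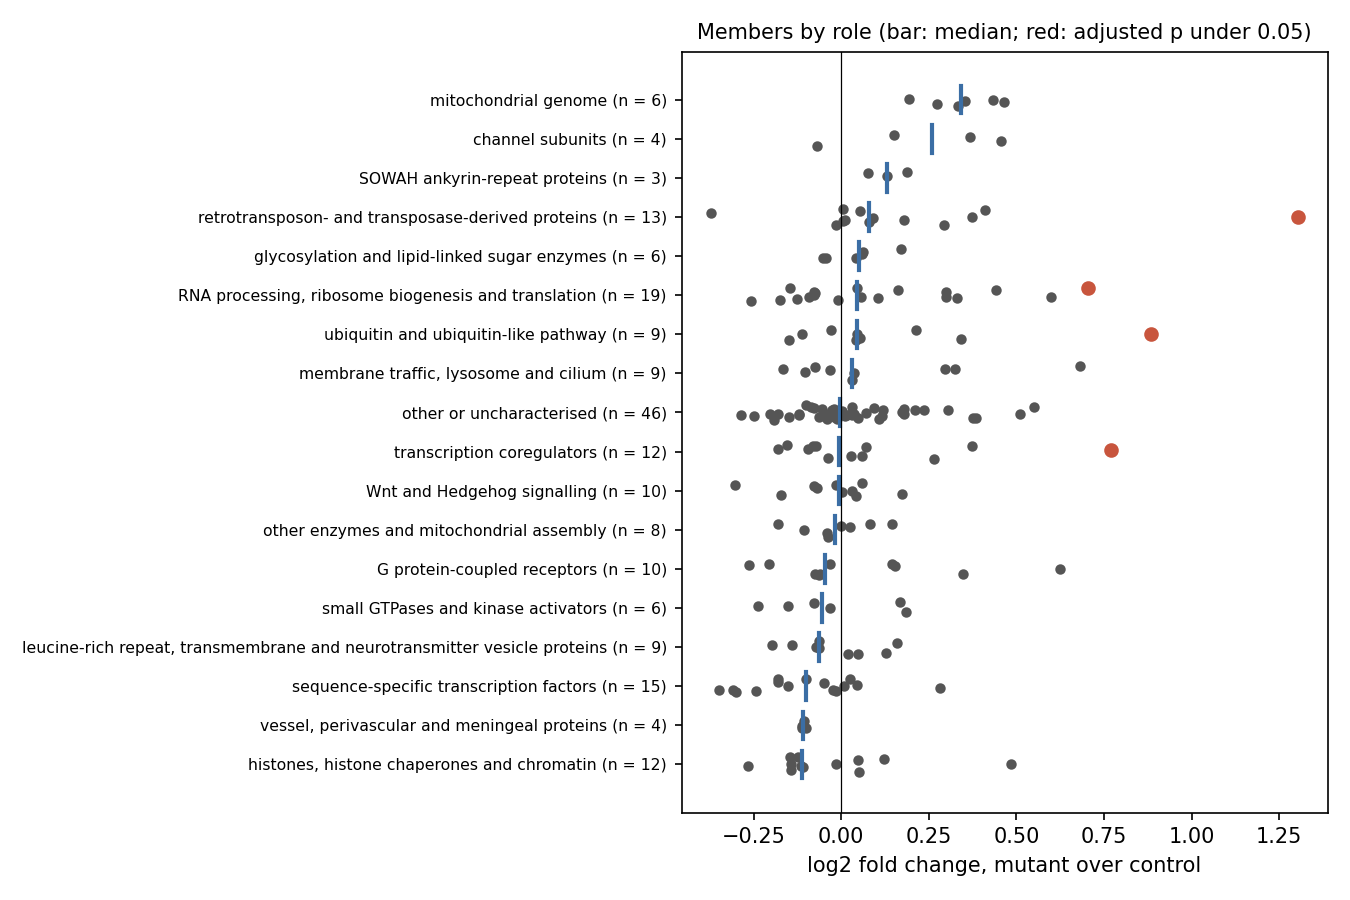
Log2 fold change of mutant over control (horizontal axis) of single-exon genes by role, each point a gene, with a blue bar at the median of the role and red points for an adjusted p under 0.05. The mitochondrial genes have the highest median, 0.34, and histones and chromatin proteins have a median of -0.11.

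The 6 mitochondrial genes behaved alike. They encode subunits of respiratory complexes and are transcribed as parts of long polycistronic RNAs, so they are not independent of each other. In all 6 every mutant library lay above every control library, with log2 fold changes from 0.19 to 0.47, and 5 had an unadjusted p under 0.05. The lowest edgeR adjusted p was 0.0617, for mt-Nd1, at 43.8, 45.5 and 48.0 CPM in the controls and 57.4, 58.1 and 59.8 CPM in the mutants. Summed over the 6 genes, the level was 129, 135 and 135 CPM in the controls and 173, 167 and 165 CPM in the mutants. The authors removed mitochondrial reads before alignment, and counts of all 13 mitochondrial coding genes made up 0.0129% to 0.0139% of the control libraries and 0.0167% to 0.0172% of the mutant libraries. These values therefore count the remainder of that step and are no measure of mitochondrial RNA. For mt-Nd4 and mt-Co1, 62.2% and 51.1% of the words also occur in nuclear pseudogenes.

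Length, base composition and level were set against the change in the 202 nuclear genes, split into 3 groups of near-equal size. By exonic length, 8, 3 and 10 genes were higher and 1, 2 and 2 were lower at an unadjusted p under 0.05 from the shortest group (401 to 1862 bases) to the longest (3152 to 11294 bases), while 3, 1 and 0 passed the adjusted edgeR test as higher. Over all tested genes in the same length ranges, 118 of 2263, 134 of 3357 and 393 of 9873 were higher at an unadjusted p under 0.05. Of the same 2263, 3357 and 9873 genes, 15, 14 and 56 passed the adjusted edgeR test as higher. By GC content, 11, 7 and 3 genes were higher and 1, 3 and 1 lower from the lowest group to the highest, and the medians were -0.04, 0.04 and -0.01. All tested genes in these GC ranges ran the same way, with 427 of 9650, 165 of 4666 and 56 of 1984 higher. By mean level, 9, 5 and 7 were higher and 1, 2 and 2 lower, beside 191 of 2887, 141 of 3733 and 174 of 7204 higher over all tested genes in those ranges. Each group held 67 or 68 genes. None of these splits was tested. The 15 X-linked genes had a median of -0.02 and 2 higher genes, Ldoc1 and Pnma3.

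**Figure D5:**
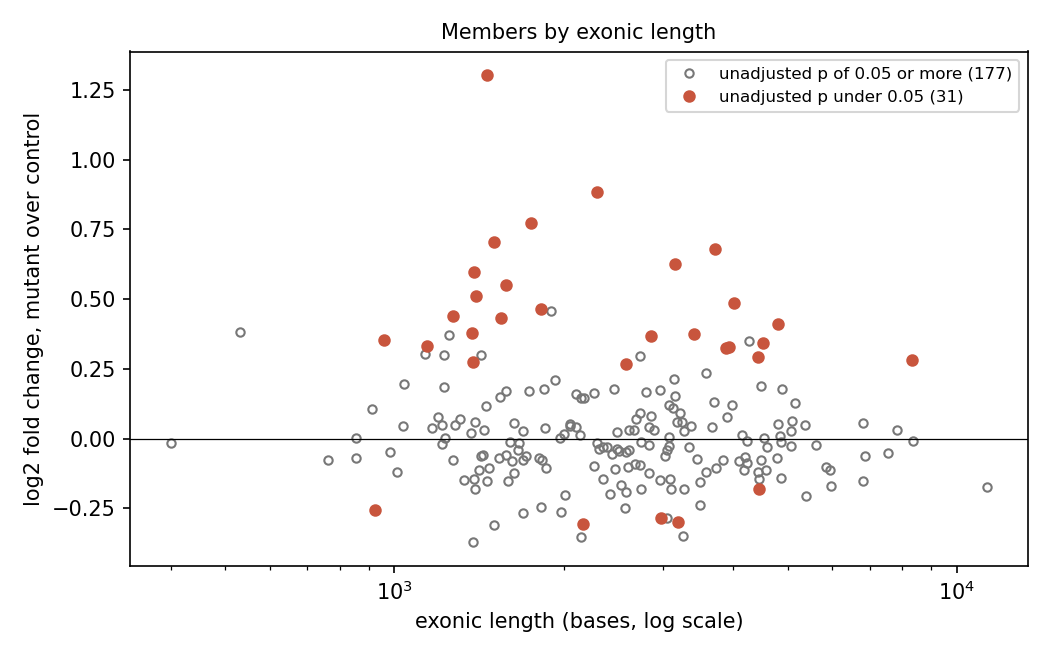
Log2 fold change of mutant over control (vertical axis) against exonic length in bases (horizontal axis, log scale) of the 208 genes; red points had an unadjusted p under 0.05 (31 genes) and open points did not (177 genes). The red points above 0 are spread over lengths from mt-Nd1 near the left edge to Purb near the right edge, and the 4 largest values belong to genes of 1459 to 2294 bases.

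None of the most abundant genes of the list passed the adjusted edgeR test, and Purb alone of the 10 highest was at an unadjusted p under 0.05. Per kilobase of exon, the highest mean levels were those of Eid1 (127 CPM per kilobase), Cdk5r2 (126), Rhob (115), Cldn5 (104) and Purb (103), and the 10 highest had log2 fold changes from -0.11 to 0.28. The 4 genes that rose stood at 2.51 to 15.03 CPM per kilobase. Genes just inside the count minimum were E130208F15Rik (200 counts, log2 fold change 0.17), Fancf (200, -0.27) and 4930518I15Rik (206, -0.15). Just outside were A530084C06Rik (199, -0.23) and the melanocortin receptor gene Mc4r (197, 0.0016).

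Lastly, 28 of the genes lay within the span of another coding gene, 12 on the strand of the host and 16 on the other strand. Gm5136, within Syt1 on the same strand, was at 3.13, 3.08 and 3.17 CPM in the controls and 5.60, 4.18 and 3.64 CPM in the mutants, beside a log2 fold change of -0.03 for the host. The groups did not overlap, but the value of 0.51 ± 0.21 did not pass the test (edgeR adjusted p = 0.623). Omp, the marker of olfactory sensory neurons within Capn5, had -0.35 ± 0.23 beside -0.0063 for its host. Ccdc184 and Ado, a thiol dioxygenase gene, had -0.29 ± 0.13 and -0.18 ± 0.09, and both had overlapping groups.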

How the data were processed

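The authors selected polyA RNA, sequenced 50-base single reads, trimmed them (Trim Galore 0.5.0), removed ribosomal, mitochondrial, phiX and adapter reads (Bowtie2 2.3.4.1), aligned the remainder to GRCm38 with STAR and assigned reads to Ensembl genes with featureCounts (Subread 1.6.2). The deposited files hold raw, unnormalised counts for 54532 identifiers in each of 6 libraries. No source used here states the strand setting or the treatment of multi-mapping reads, so genes that share words with another gene or lie opposite one carry uncertain counts.

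Annotation came from GENCODE M21, which matched 54495 identifiers. Genotype was tested in all 6 libraries by the quasi-likelihood F test of edgeR 4.0.16 (R 4.3.3) after filterByExpr and TMM normalisation. P-values were adjusted by the Benjamini-Hochberg method over 16731 genes, and all 208 genes of the list passed the filter on low counts. A gene was called at an adjusted p under 0.05 and a fold change over 2. SE values derive from the F statistic, and CPM uses the effective library size. The spread is between brains, 3 per group. Shared sequence was searched as 50-base words in annotated transcripts.

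The list and its groupings were chosen with earlier results of these data known. Named genes followed a rule: genes past the adjusted p, the 10 largest and 10 smallest changes at an unadjusted p under 0.05, the 10 highest levels per kilobase, extremes of lists of symbols that served to pick names, and genes beside the count minimum. Other names, chiefly family members, hosts, neighbours and further genes at an unadjusted p under 0.05, were chosen after their values were seen. A few genes that met the rule are not reported here. Roles used in the text were assigned by hand. The steps were tested on simulated counts. Also run were DESeq2 1.42.0, limma-voom (limma 3.58.1), RLE size factors, other filters, GC correction (loess span 0.3), a replicate block, each library left out, protein-coding genes only, and other count or fold limits. No pair of libraries within a genotype agreed within sampling noise (chi-square per degree of freedom 3.67 to 13.6).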

Additional observations from a re-analysis of the deposited data

How the results depend on the processing

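The direction of all 4 genes that passed the adjusted test held in every alternative fit, and Nhlrc1, Eid2b and Ldoc1 had an adjusted p under 0.05 in each fit of the difference from 0. The count of called genes, 1 with the main settings and in every fit without a library, was 2 with a count minimum of 100 (which adds Gm16503), 0 with a minimum of 500 (which drops Ldoc1), 11 with the left-out genes put back, 0 when edgeR tested against 1.5-fold and 4 with a fold limit of 1.5. No gene was called lower in any of them. Genes higher at an adjusted p under 0.05 numbered 4, and 9 with no filter on low counts (adding Pnma3, Rnf113a2, Tspyl5, mt-Nd1 and mt-Nd5), 16 with the left-out genes put back, 5 with DESeq2 and 3 to 6 without a library. Genes lower at an unadjusted p under 0.05, a count whose alternatives were chosen after seeing the data, numbered 5, then 1 with DESeq2 and 1 to 11 without a library (1 on dropping control 1 or mutant 3, 3 on dropping control 2, 10 on dropping control 3 and 11 on dropping mutant 1), while those higher ran from 22 to 29 against 26. The median log2 fold change of the list ran from -0.045 to 0.051 without a library, so its sign was not settled. The causes of these shifts were not tested.

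Replicate numbers are shared by the groups, but same-numbered libraries had correlations of 0.10, -0.05 and 0.08 between their deviations, so the numbers were not taken to pair the brains. With the replicate number as a block, 6 genes were higher at an adjusted p under 0.05 (adding Tspyl5 and Rnf113a2), and 1 was called.

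Named genes near 0 changed sign in some fits. Without a library, the log2 fold changes ran from -0.030 to 0.28 for B3galt4, -0.063 to 0.33 for E130208F15Rik, -0.0032 to 0.065 for Eid1, -0.18 to 0.18 for Foxd1, -0.022 to 0.15 for Fzd10, -0.44 to 0.017 for Fzd8, -0.077 to 0.0024 for Gpr27, -0.15 to 0.18 for Jund, -0.15 to 0.018 for Kcnf1, -0.17 to 0.076 for Mgat2, -0.097 to 0.095 for Pnmal2, -0.10 to 0.052 for Rhob, -0.13 to 0.13 for Rtl8c and -0.12 to 0.11 for Zxdb. Jund was at 0.0049 with limma-voom and 0.0034 with the replicate block, and Rtl8c at 0.0046 with the block and GC correction. Depth limits the genes near 200 counts most, where a 95% interval could span more than 1.5-fold.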
